A study of Mus musculus with 18 samples.

Results

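The genes described here are 10 transcription factors of the primitive streak and early mesoderm, taken by name: T, Eomes, Tbx6, Mixl1, Gsc, Lhx1, Evx1, Mesp1, Hand1 and Snai1. All 10 were present among the 17818 gene symbols of the embryonic stem (ES) cell table and the 17813 of the fibroblast table. They were followed in mouse cells that had lost TRIM28 (also called KAP1), a corepressor that zinc finger proteins carry to DNA and that recruits the machinery for the repressive histone mark H3K9me3. The RNA groups were ES3 cells (C57BL/6 ES cells grown in serum with LIF on gelatin) as wild type after 4 days in culture or as Trim28 knockout 4 days after Cre was switched on with 4-hydroxytamoxifen (4-OHT), and mouse embryonic fibroblasts (MEFs, C57BL/6) as wild type after 5 days or as knockout 5 days after 4-OHT. The labels used here do not say whether wild-type cells also received 4-OHT or what drives the Cre. H3K9me3 and TRIM28 were mapped by chromatin immunoprecipitation in ES3 cells of the same genotypes at 4 days, a time by which, per the labels, H3K9me3 has fallen but is not gone.

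Duplicates were pooled before RNA extraction, so every group is 1 library. No spread between replicates can be given and no difference was tested. Values are RPKM, read counts scaled to transcript length and library size, and the depth behind them is unknown. The ES table names its columns only as wild type and knockout; they were read as the ES3 pair because the other ES pair is labelled wild type and knockdown. Trim28 stood at 1051 RPKM in wild-type ES3 cells against 37.2 RPKM in knockout ES3 cells, and at 62.8 and 5.84 RPKM in MEFs. Pou5f1, the defining factor of pluripotent cells, was at 820.2 RPKM in wild-type ES3 cells, and the fibroblast surface gene Thy1 at 588.7 RPKM in wild-type MEFs. In the ES3 pair 79.8% of the genes past 2-fold were higher in the knockout, or 73.7% when ratios were centred on their median of 0.08.

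The primitive streak is the furrow of the gastrulating embryo through which epiblast cells leave the epithelium to become mesoderm and definitive endoderm. Wnt3, Nodal and Bmp4 signals induce it. T and Eomes are T-box factors at the top of the response, Mixl1, Gsc, Lhx1 and Evx1 are homeobox factors that mark parts of the streak and its organizer, Mesp1 and Hand1 are basic helix-loop-helix factors of cardiac and extraembryonic mesoderm, Tbx6 specifies paraxial mesoderm, and Snai1 is the zinc finger repressor that drives the epithelial to mesenchymal transition. Several of them are also known outside the streak: Eomes and Hand1 in trophoblast, and Eomes, Lhx1 and Gsc in visceral endoderm. ES cells keep most of these genes silent or very low.

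Promoter sequences, from RefSeq on GRCm38.p6, were found for 8 of the 10 genes; Hand1 and Mixl1 had no entry. They are shown for T and Snai1, which were both more than 2-fold higher in the ES3 knockout, and for Mesp1, which stayed under 1 RPKM and differs from both in CpG content; T and Mesp1 are the ones that hold the site of the Wnt effectors TCF and LEF. Each line gives the 250 bases before the gene start, 5′ to 3′ on the strand of the gene. Capitals mark matches on either strand to 5 motifs: the TCF/LEF site CTTTGA, the E-box bound by Snail proteins, which reads CAGGTG, the TATA box written as TATAAA, the GC box written as GGGCGG, and the CCAAT box; where a GC box and CCAAT overlap they form 1 run. The T sequence lies at chr17:8434173-8434422 (plus strand), that of Snai1 at chr2:167537945-167538194 (plus) and that of Mesp1 at chr7:79793591-79793840 (minus).
T: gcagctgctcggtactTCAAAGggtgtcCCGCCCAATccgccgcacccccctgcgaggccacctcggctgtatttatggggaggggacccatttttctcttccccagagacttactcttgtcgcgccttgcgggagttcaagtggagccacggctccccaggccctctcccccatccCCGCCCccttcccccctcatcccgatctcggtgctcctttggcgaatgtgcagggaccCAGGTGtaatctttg
Snai1: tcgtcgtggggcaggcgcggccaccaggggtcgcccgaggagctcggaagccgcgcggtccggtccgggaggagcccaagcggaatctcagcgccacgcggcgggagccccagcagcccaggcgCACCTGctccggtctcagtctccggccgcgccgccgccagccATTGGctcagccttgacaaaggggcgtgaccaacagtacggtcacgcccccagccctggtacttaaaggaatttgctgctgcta
Mesp1: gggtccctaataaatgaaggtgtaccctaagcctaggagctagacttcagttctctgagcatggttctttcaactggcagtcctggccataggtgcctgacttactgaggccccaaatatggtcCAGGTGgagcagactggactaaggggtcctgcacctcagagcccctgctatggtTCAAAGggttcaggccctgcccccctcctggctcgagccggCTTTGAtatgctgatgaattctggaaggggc
The T promoter held 1 TCF/LEF match, on the opposite strand with its first base 234 bases before the start, and an E-box 15 bases before it. Snai1 held an E-box 126 bases before the start and no TCF/LEF match in this window. Mesp1 held 2 TCF/LEF matches, at 31 and 72 bases, and an E-box at 126 bases. Of 32851 RefSeq promoters in all 13.8% held CTTTGA and 17.2% held CAGGTG, against 2 and 4 of the 8. The TATA box was in 12.4% of all and in Gsc and Tbx6, the GC box in 32.7% and in T and Gsc, and the CCAAT box in 33.8% and in T, Snai1, Eomes and Lhx1. None of the 8 held AATCCACA (FOXH1, 0.718% of all), AGGTGTGA (T-box, 1.12%) or GTCTAGAC (SMAD, 0.167%), and none held TAATCC (homeodomains of the Gsc type, 6.25%). The Snai1 window had 27 CpG dinucleotides and that of Lhx1 26, more than in 91.4% and 90.4% of all promoters, whereas Mesp1 had 2, more than in 18.8%; the median promoter had 6. Gsc had 22, T 14, Evx1 10, Eomes 8 and Tbx6 6.

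In ES3 cells 3 of the 10 genes were higher in the knockout by more than 2-fold: Hand1, T and Snai1. The other 7 lay under 1 RPKM in both libraries and so below the level at which genes were called. Across the 12024 genes that reached 1 RPKM in an ES3 library, 12.5% were higher by 2-fold or more and 3.18% lower. Hand1 and T were under 1 RPKM in wild type and reached that level only through the knockout, so a ratio above 0 was fixed for them by the filter; of 1204 such genes 608, or 50.5%, passed 2-fold. Fold changes here are log2((knockout + 1)/(wild type + 1)), which understates the change of low genes.

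Among the T-box genes, T stood at 0.376 RPKM in wild-type cells against 6.15 RPKM in knockout cells, a log2 ratio of 2.38 and a plain ratio of 16.3. T, or brachyury, is the factor by which the streak is usually recognised. Eomes, which acts with T in the early streak and is needed for definitive endoderm, stood at 0.549 and 0.881 RPKM (log2 ratio 0.28). Tbx6, which turns streak progenitors to paraxial mesoderm, had nearly the same level in both libraries, 0.534 and 0.538 RPKM. The 3 T-box genes lay between 0.376 and 0.549 RPKM in wild type, and of them only T passed 2-fold.

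The 4 homeobox genes stayed low. Mixl1, a factor of the posterior streak and of mesendoderm, stood at 0.269 RPKM in wild-type cells against 0.439 RPKM in knockout cells (0.18). Lhx1, a LIM homeobox factor of the organizer and of visceral endoderm, was listed at 0 and at 0.325 RPKM (0.41). Gsc, the homeobox gene of the organizer, had 0.0651 RPKM in wild-type cells and was listed at 0 in knockout cells. Evx1, which marks the posterior streak, stood at 0.214 and 0.246 RPKM. No plain ratio is given for Lhx1 and Gsc, each listed at 0 in 1 library.

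Of the basic helix-loop-helix genes, Hand1 had the largest ratio of the 10, with 0.406 RPKM in wild-type cells against 7.69 RPKM in knockout cells (2.63; plain ratio 18.9). Of all measured genes 1.24% had a larger log2 ratio than Hand1, against 1.61% for T. Both genes were measured only through the knockout. These shares therefore do not set them against genes selected in the same way, and do not show how unusual they are. Mesp1, the regulator of the first cardiac mesoderm, stood at 0.0701 and 0.253 RPKM (0.23). The plain ratio of Mesp1 was 3.60, yet its difference of 0.182 RPKM is far smaller than that of Hand1, 7.28 RPKM. Snai1, the most abundant of the 10 in wild type and the one gene there above 1 RPKM, stood at 2.77 and 14.9 RPKM (2.08; plain ratio 5.39). Its difference of 12.2 RPKM was the largest of the 10.

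In knockout ES3 cells the order by RPKM was Snai1, Hand1, T, Eomes, Tbx6, Mixl1, Lhx1, Mesp1, Evx1 and Gsc. With 1 library each, neighbours in this order cannot be told apart by their spread. In wild type Snai1 had more RPKM than 51.4% of all genes and in the knockout more than 76.5%. For Hand1 these shares were 31.4% and 63.7%, and for T 30.8% and 59.6%. Eomes kept its place, with 33.9% and 33.1%, as did Mixl1, with 28.0% and 26.7%.

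**Figure D1:**
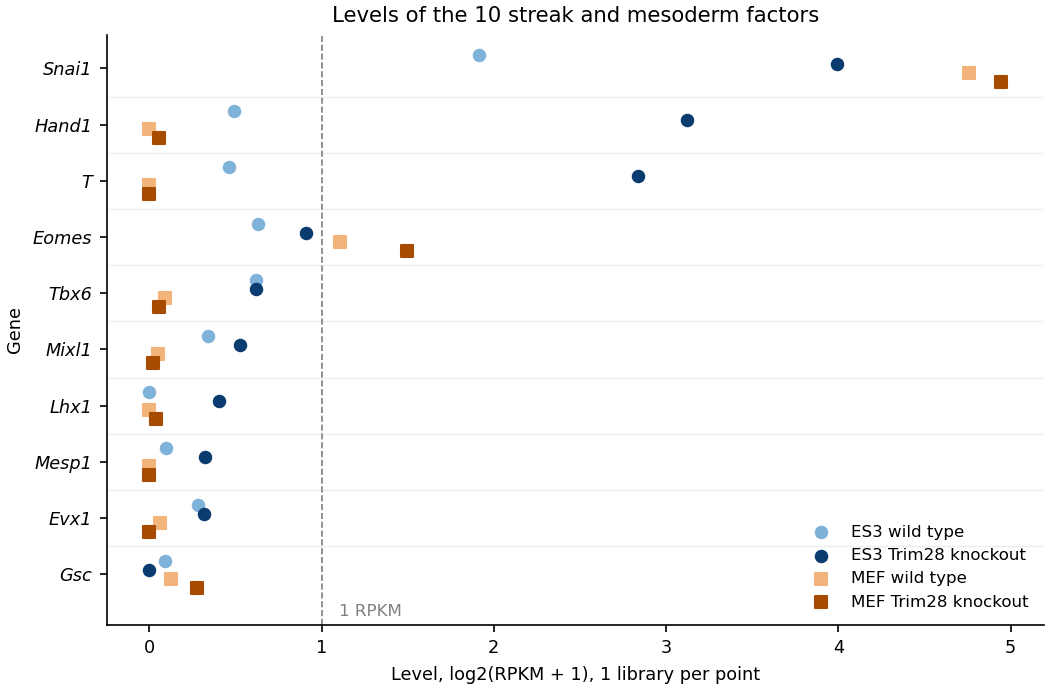
Level of each gene as log2(RPKM + 1) in the 4 RNA libraries, 1 point per library; blue circles are ES3 cells, orange squares MEFs, and darker points the knockouts. Snai1, Hand1 and T lie above the 1 RPKM line in knockout ES3 cells, at 14.9, 7.69 and 6.15 RPKM, whereas Hand1 and T lie at or near 0 in MEFs.

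In MEFs none of the 10 genes passed 2-fold in either direction. Across the 10805 measured MEF genes 0.981% passed 2-fold upward and 4.84% downward. Only Snai1 and Eomes were measured. Snai1, which fibroblasts express as mesenchymal cells, stood at 26.1 RPKM in wild-type cells against 29.8 RPKM in knockout cells (0.18, and −0.16 after span centring, which sets the median ratio of genes of like length to 0). Eomes stood at 1.15 and 1.83 RPKM (0.39, and 0.10 after it). Both ratios lay within the middle 90% of measured genes, which ran from −0.99 to 0.76.

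T and Mesp1 were listed at 0 in both MEF libraries. Hand1 and Lhx1 were listed at 0 in wild-type MEFs and had 0.0379 and 0.0262 RPKM in knockout MEFs. Evx1 had 0.0426 RPKM in wild-type MEFs and was listed at 0 in knockout MEFs. Gsc stood at 0.0933 and 0.213 RPKM, Tbx6 at 0.0638 and 0.0415 RPKM, and Mixl1 at 0.0341 and 0.0157 RPKM. Of the 3 genes past 2-fold in ES3 cells, 2 therefore had next to no MEF signal, and the third, Snai1, was already high in wild-type MEFs. The ES and MEF tables were made separately, so levels set across them are only a rough guide. Whether the response of a gene differed between ES3 cells and MEFs was not tested.

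**Figure D2:**
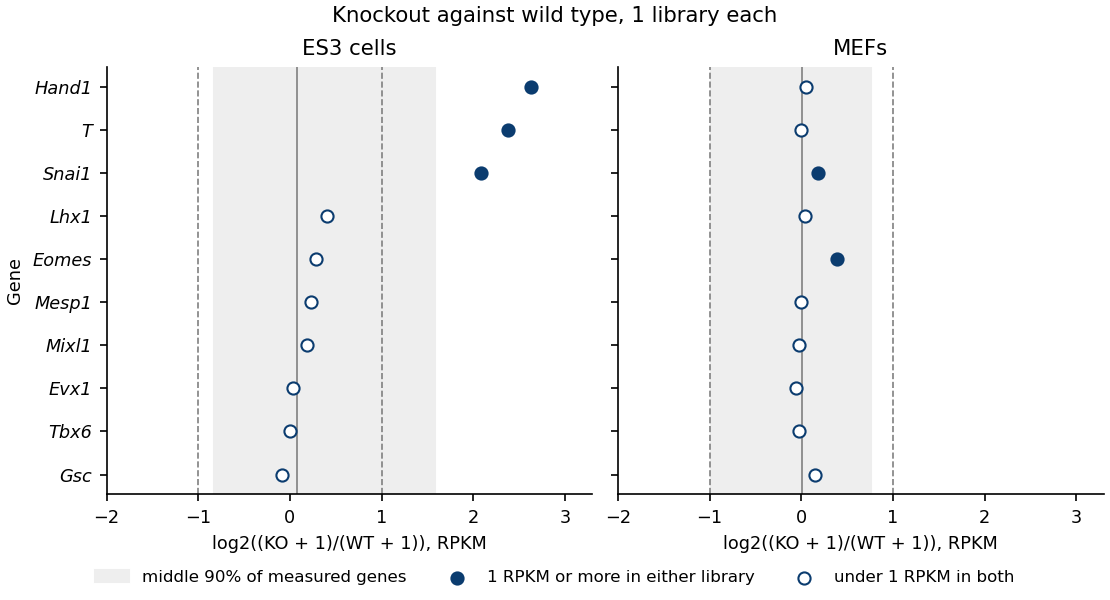
Log2 ratio of knockout to wild type for each gene in ES3 cells (left) and MEFs (right); filled points are genes that reach 1 RPKM in a library of the pair, open points do not, grey bands span the middle 90% of measured genes, grey lines mark their median and dashed lines 2-fold. Hand1 (2.63), T (2.38) and Snai1 (2.08) lie outside the ES3 band, which ends at 1.58, and no gene leaves the MEF band. Hand1 and T were measured only through the knockout.

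The genes whose levels over the 4 libraries were closest to Hand1, out of 17760 compared, were Wnt3 (a distance of 0.09 in log2(RPKM + 1)), Wnt8a (0.11) and Cyp2b23 (0.11). Wnt3 is the ligand that starts streak formation, and Wnt8a is a Wnt ligand of the streak. Wnt3 stood at 0.346 RPKM in wild-type ES3 cells against 7.43 RPKM in knockout ES3 cells and at 0 and 0.0115 RPKM in MEFs. Wnt8a stood at 0.355 and 7.85 RPKM in ES3 cells and at 0.0485 and 0 RPKM in MEFs. Among the genes close to T were Glb1l2 (0.22) and again Wnt3 (0.24). Among those close to Snai1 were Me1 (0.25), the cytosolic malic enzyme, and the ATP-gated channel gene P2rx4 (0.44). Each distance rests on 4 libraries, 1 per condition.

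Of 18 genes for the signals that induce the streak and their transducers, 16 were measured in ES3 cells. Of these, 2 were at least 2-fold higher, 2 lower and 12 in between, with a median of 0.11 against 0.08 over all measured genes. The higher ones were Wnt8a (2.71) and Wnt3 (2.65), both measured only through the knockout. The lower ones were Fgf4 (−1.77), the growth factor made by ES cells, with 98.6 and 28.1 RPKM, and Bmp4 (−1.12), with 8.15 and 3.20 RPKM. Nodal, named after its value was seen, lay within 2-fold, with 35.0 RPKM in wild-type cells against 39.7 RPKM in knockout cells. Of 9 measured antagonists and feedback genes 3 were higher, 1 was lower and the median was 0.25. Dkk1, a secreted Wnt inhibitor, stood at 0.162 and 4.93 RPKM (2.35), Axin2, a feedback inhibitor that Wnt signals induce, at 1.23 and 6.27 RPKM (1.71), and the BMP inhibitor gene Nog at 0.177 and 2.18 RPKM (1.43). Dkk1 and Nog were measured only through the knockout. Notum, an extracellular Wnt deacylase, was lower, with 9.96 and 3.69 RPKM (−1.22).

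Among 8 measured genes of the epithelial to mesenchymal transition, which Snai1 governs, 3 were at least 2-fold higher, none was lower and the median was 0.90. The list holds both mesenchymal and epithelial genes, so this count and median do not measure a transition. Vim, the intermediate filament of mesenchymal cells, stood at 51.1 and 301.4 RPKM (2.54), and Cdh2, or N-cadherin, at 1.09 and 3.61 RPKM (1.14, and 0.91 after span centring). Of the other mesenchymal genes, Twist1 (0.83) and Zeb1 (0.65) stayed within 2-fold. So did Fn1, which was slightly lower, with 176.6 and 141.7 RPKM (−0.32). The epithelial genes were not lower in the knockout: the tight junction gene Cldn6 had a log2 ratio of 1.30 and Epcam of 0.97. Cdh1, or E-cadherin, the gene that Snai1 is known to repress, stood at 93.4 RPKM in wild-type cells against 154.3 RPKM in knockout cells (0.72), and is named here after its value was seen. In MEFs 2 of 7 measured genes were lower, the fibronectin gene Fn1 (−1.48) and Zeb2 (−1.06, and −0.62 after span centring), none was higher and the median was −0.71 (−0.53).

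Of 30 further streak and mesoderm regulators, 29 were in the ES table and 16 were measured, with 9 at least 2-fold higher, 2 lower and a median of 1.04. Centring on the median of all genes brought Nkx2-5 (1.06) and Cdx2 (1.03) under 2-fold and left 7 higher. The largest ratios belonged to Gata4 (4.94), Gata6 (3.41), Foxa2 (3.22) and Pdgfra (3.07), genes that mark primitive endoderm as well as mesoderm or definitive endoderm. Sp5, a Wnt-induced zinc finger gene of the streak, stood at 0.441 and 9.91 RPKM (2.92), and is named after its value was seen. The 2 lower genes, also named after their values were seen, were Tcf15 and Sall3. Tcf15 stood at 78.1 and 21.1 RPKM (−1.84) and Sall3 at 2.87 and 0.581 RPKM (−1.29). Mesp2, the neighbour and relative of Mesp1, stood at 1.33 and 1.38 RPKM (0.03). Of the 16 measured genes 10 were under 1 RPKM in wild type and measured only through the knockout, among them 8 of the 9 higher ones. Over all genes, 50.5% of those measured only through the knockout passed 2-fold upward, and 12.5% of all measured genes. Gata4, Gata6 and Foxa2 are counted again below as endoderm markers, Cdx2 as a trophoblast marker and Otx2 as a neural marker. Msgn1, a factor of presomitic mesoderm, was listed at 0 in both ES3 libraries. In MEFs none of 12 measured genes passed 2-fold.

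Markers of other cell types differed in the same ES3 pair as Hand1, T and Snai1. All 17 measured markers of primitive and visceral endoderm passed 2-fold upward in ES3 cells (median 3.41), and the summed level of the 18 in the table was 76.7 RPKM in wild-type cells against 1731 RPKM in knockout cells. Of the 17, 11 were under 1 RPKM in wild type and measured only through the knockout, which fixed the sign of their ratio; 12.5% of all measured genes, and 50.5% of those measured only through the knockout, passed 2-fold upward. Ttr and Afp were listed at 0 in wild type and had 1.33 and 0.0535 RPKM in the knockout, so Afp was not among the 17. Col4a2 (6.07), Col4a1 (5.97), Gata4 (4.94) and Cubn (4.58) led the 17. Most of the summed knockout level came from the matrix genes Sparc (544.3 RPKM), Col4a1 (409.3), Lama1 (301.6) and Col4a2 (256.7). Sparc, Col4a1 and Col4a2 are not confined to endoderm, with 993.5, 346.9 and 277.0 RPKM in wild-type MEFs. Of 13 measured trophoblast markers 10 passed 2-fold upward and none downward, the median was 1.39, and the summed level over 15 genes was 32.8 and 428.0 RPKM; 8 stayed past 2-fold when ratios were centred on the median of all genes. Of the 10, 5 were measured only through the knockout. Krt8 (5.12), Krt18 (4.44), Krt19 (3.20) and Krt7 (2.27), keratins of simple epithelia, led that list. Krt8, Krt18 and Krt19 stood at 178.8, 164.0 and 38.6 RPKM in the knockout and made up most of the summed level there. In the same list Gata3 (0.99), Cdh3 (0.33) and Ascl2 (0.17) stayed within 2-fold. The placental genes of that list, Tpbpa and Prl3d1, were listed at 0 in both ES3 libraries. Only 15 of the 20 genes of the trophoblast list could be read, and Elf5, Tfap2c and Tfap2a were among those absent. In a bulk sample more cells of a type and more RNA per cell cannot be told apart, and the part of endoderm or trophoblast cells in the levels of Hand1, T, Eomes and Lhx1 was not tested.

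Neural, fibroblast and pluripotency markers were counted in the same way. Of 5 measured neural markers 3 were higher, Zic2 (2.59), Nes (2.52) and Otx2 (1.12), and 2 lower, Gbx2 (−1.53) and Sox1 (−1.12). Of 4 measured fibroblast markers 3 were higher, the collagen genes Col1a1 (2.94) and Col3a1 (1.16) and the factor gene Twist2, listed at 0 in wild-type cells with 1.03 RPKM after knockout, and the other was Thy1 (0.94). All 3 were measured only through the knockout, and Twist2 came under 2-fold with median centring. The summed level of the 10 fibroblast markers was 2.35 and 17.6 RPKM, against 4064 RPKM in wild-type MEFs. Of 12 pluripotency markers 7 were lower (8 with median centring) and none higher, with a median of −1.27, led by Nr0b1 (−4.42), Esrrb (−2.0), Sox2 (−1.94) and Fgf4. Pou5f1 stayed within 2-fold, at 493.5 RPKM in the knockout (−0.73). In MEFs none of the measured streak signals (7), antagonists (4), endoderm (6), trophoblast (7), neural (1) or pluripotency genes (4) passed 2-fold, while of 9 fibroblast markers Twist2 (1.24) was higher and Postn (−1.56) lower.

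**Figure D3:**
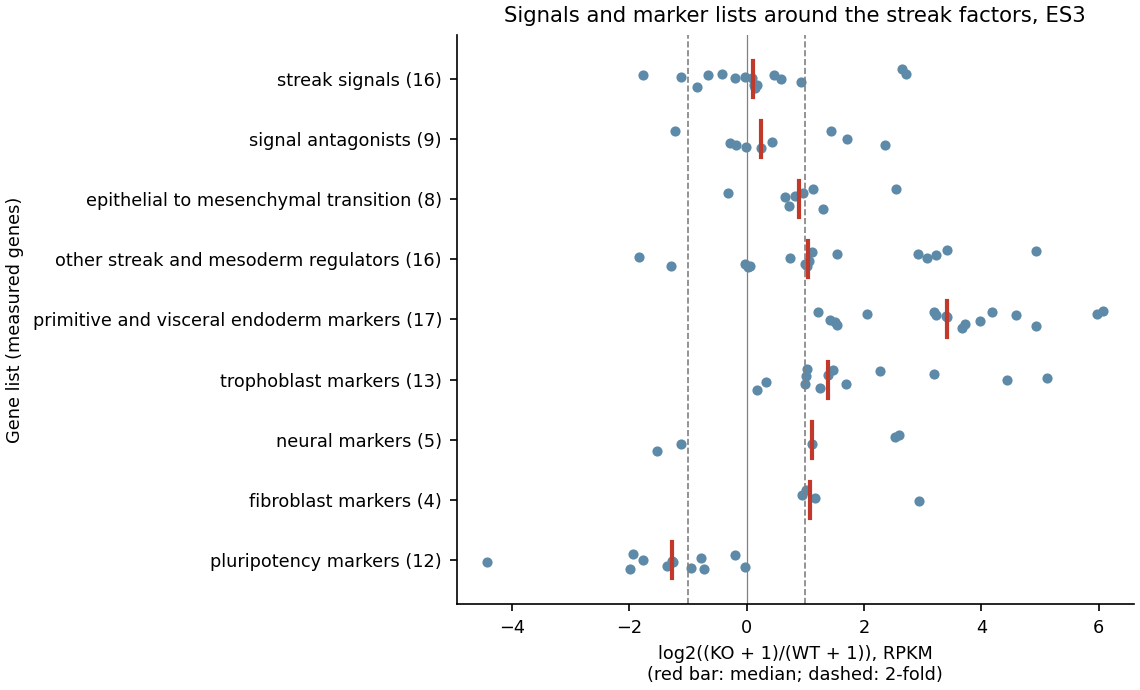
Log2 ratio of knockout to wild type in ES3 cells for each measured gene of 9 lists of signals, regulators and cell type markers, with the number measured in brackets; red bars are medians and dashed lines 2-fold. The endoderm markers lie wholly above 2-fold (median 3.41), the streak signals have a median of 0.11 with Wnt3 and Wnt8a above 2-fold and Fgf4 and Bmp4 below it, and the pluripotency markers lie below 0 (median −1.27).

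No other gene of the table overlapped any of the 10. Of the 20 flanking genes 15 were measured in ES3 cells, and none passed 2-fold. Over all measured ES3 genes 12.5% were higher and 3.18% lower, so few of 15 would be past it in any case. Hand1 lies between Sap30l (−0.10), 18.5 kb downstream, and Larp1 (−0.15), 176.2 kb upstream. Snai1 lies between Rnf114 (0.14), 22.0 kb upstream, and Ube2v1 (−0.05), 64.8 kb downstream. T lies 11.7 kb downstream of T2 and 82.9 kb upstream of Pde10a, both under 1 RPKM; Pde10a, a phosphodiesterase gene, stood at 0.0898 and 0.677 RPKM. Closely packed neighbours include Ppp4c, a phosphatase subunit gene 0.359 kb from Tbx6, at 149.9 and 107.3 RPKM, and Lin9, 2.54 kb from Mixl1, at 5.17 and 3.75 RPKM.

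Chromatin regions were compared with gene starts in mm9, the build of the files. They come as 1 list per condition, without replicates. Exon positions were not used, so regions are placed only inside or outside the span of a gene. H3K9me3 lists held 37002 regions in wild type and 37221 in the knockout, and 19057 of the wild-type regions overlapped no knockout region (wild-type-only). TRIM28 peaks numbered 3099 for wild type over input, 2382 for wild type over knockout and 1898 for the TRIM28 antibody in knockout chromatin over input. No region of any of these lists overlapped the span of any of the 10 genes. Over all genes 16.9% held a wild-type H3K9me3 region and 6.07% a wild-type TRIM28 peak over input, but the 10 are short, from 1.55 to 8.07 kb against a median of 19.8 kb.

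Wild-type H3K9me3 was called near 1 of the 10 starts. Only Evx1 had a wild-type region within 20 kb, against 24.4% of all genes, and none of the 10 had a wild-type-only region there, against 17.2%. None had a TRIM28 peak of wild-type cells within 20 kb, over input (6.94% of all genes) or over knockout (4.93%). Within 100 kb 6 of the 10 had a wild-type H3K9me3 region (69.3% of all genes) and 6 a wild-type-only region (57.0%), while 2 had a TRIM28 peak over input (29.3%) and 1 a peak over knockout (22.1%). Knockout chromatin gave another count: 5 of the 10 had a knockout H3K9me3 region within 20 kb, against 24.3% of all genes, and for 4 of them, T, Eomes, Mixl1 and Mesp1, the region overlapped no wild-type region (16.0% of all genes had such a region). Within 100 kb 6 had a knockout region (70.0%) and 5 a knockout region that overlapped no wild-type one (52.4%). The Evx1 region was kept in both genotypes, as for 12.4% of all genes, and 2 of the 10, Evx1 and Snai1, had a kept region within 100 kb (44.5%). A peak with the TRIM28 antibody in knockout chromatin lay within 20 kb of T (4.85%) and within 100 kb of 5, T, Mixl1, Gsc, Snai1 and Evx1 (21.5%). These shares describe 10 genes and carry no test.

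Of the 3 genes that were higher in the ES3 knockout, T (NM_009309; chr17:8627288-8635361, plus strand) had 1 wild-type-only H3K9me3 region within 100 kb of its start. It spans chr17:8599229-8600240, 27 kb upstream, inside the T2 gene. In knockout chromatin T had 2 H3K9me3 regions, 1 of 419 bp 17.3 kb downstream (chr17:8644545-8644963) and 1 of 399 bp about 70 kb upstream in Sft2d1, and a peak with the TRIM28 antibody 9.72 kb downstream (chr17:8637004-8637546) with a deposited score of 71.9. The nearest wild-type TRIM28 peak was 233.8 kb from T. Hand1 (NM_008213; chr11:57642209-57646320, minus strand) had no H3K9me3 region of either genotype within 100 kb. A TRIM28 peak 94.2 kb upstream (chr11:57740510-57741155) was called in wild type over input, with a score of 62.5, and over knockout, with 59.4; scores are the authors' and rank peaks only within a list. Snai1 (NM_011427; chr2:167363695-167368314, plus strand) had wild-type-only H3K9me3 regions 56.0 and 74.6 kb upstream, in the Spata2 and Slc9a8 genes, and a region kept in the knockout 69.9 kb downstream in Ube2v1. Its nearest wild-type TRIM28 peak was 204.9 kb away.

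Gsc (NM_010351; chr12:105709419-105711446, minus strand) had the highest-scoring wild-type TRIM28 peak of the 10 within 100 kb and almost no RNA. A TRIM28 peak 25.8 kb downstream of its start (chr12:105684805-105685687), outside any gene of the table, had a score of 331.9, above 98.5% of the peaks in wild type over input. It overlapped 2 wild-type-only H3K9me3 regions, chr12:105683650-105685419 and chr12:105685681-105687639. In knockout chromatin the antibody still gave a peak there (chr12:105684610-105685314, score 74.8), and the list of wild type over knockout had no peak within 100 kb of Gsc. Another 4 wild-type-only regions lay 90.3 to 95 kb downstream in Serpina3m. Gsc RNA was 0.0651 RPKM in wild-type cells and listed at 0 after knockout, and Serpina3n, its downstream neighbour, was at 0.0123 and 0.218 RPKM. Among the 10 it had the most wild-type-only H3K9me3 regions within 100 kb, 6, and the depth behind its RNA value of 0 is unknown.

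Evx1 (NM_007966; chr6:52263492-52268372, plus strand) kept 4 of its 5 wild-type H3K9me3 regions. It lies at the end of the HoxA cluster, 52.7 kb from Hoxa13. All were within 100 kb, and those that overlapped a knockout region included the nearest, 4.28 kb upstream (chr6:52258561-52259212; in the knockout chr6:52258366-52260134), and the largest, 5277 bp wide in wild type and 1423 bp in the knockout. The region that overlapped none, chr6:52296571-52297971, lay 33.1 kb downstream. In the knockout Evx1 had 8 H3K9me3 regions within 100 kb, of which 4 overlapped no wild-type region. Lhx1 (NM_008498; chr11:84331479-84338923, minus strand) had 1 wild-type-only region, 27.7 kb upstream, and no knockout region within 100 kb. Mixl1 (NM_013729; chr1:182623185-182627165, minus strand) had 2 wild-type-only regions 79.6 and 84.5 kb downstream, knockout regions 9.0 and 93.5 kb upstream and a knockout TRIM28-antibody peak 24.1 kb downstream in Lin9.

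Eomes (NM_010136; chr9:118387330-118395250, plus strand) and Mesp1 (NM_008588; chr7:86937127-86938674, minus strand) had no wild-type region within 100 kb but had knockout ones. Eomes had 2, the nearer 419 bp wide and 7.38 kb upstream (chr9:118379531-118379949) and the other 76.7 kb upstream. Mesp1 also had 2, the nearer 606 bp wide, 16.5 kb upstream and overlapping Mesp2 (chr7:86955207-86955812), and the other 42.4 kb upstream in Anpep. Tbx6 (NM_011538; chr7:133924997-133929062, plus strand) had no region of any list within 100 kb, and its nearest wild-type H3K9me3 region was 458.9 kb away. Knockout-only regions were narrow in general, with a median width of 511 bp, and so were wild-type-only regions, with 581 bp. The wild-type regions kept in the knockout were wider, with a median of 948 bp.

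**Figure D4:**
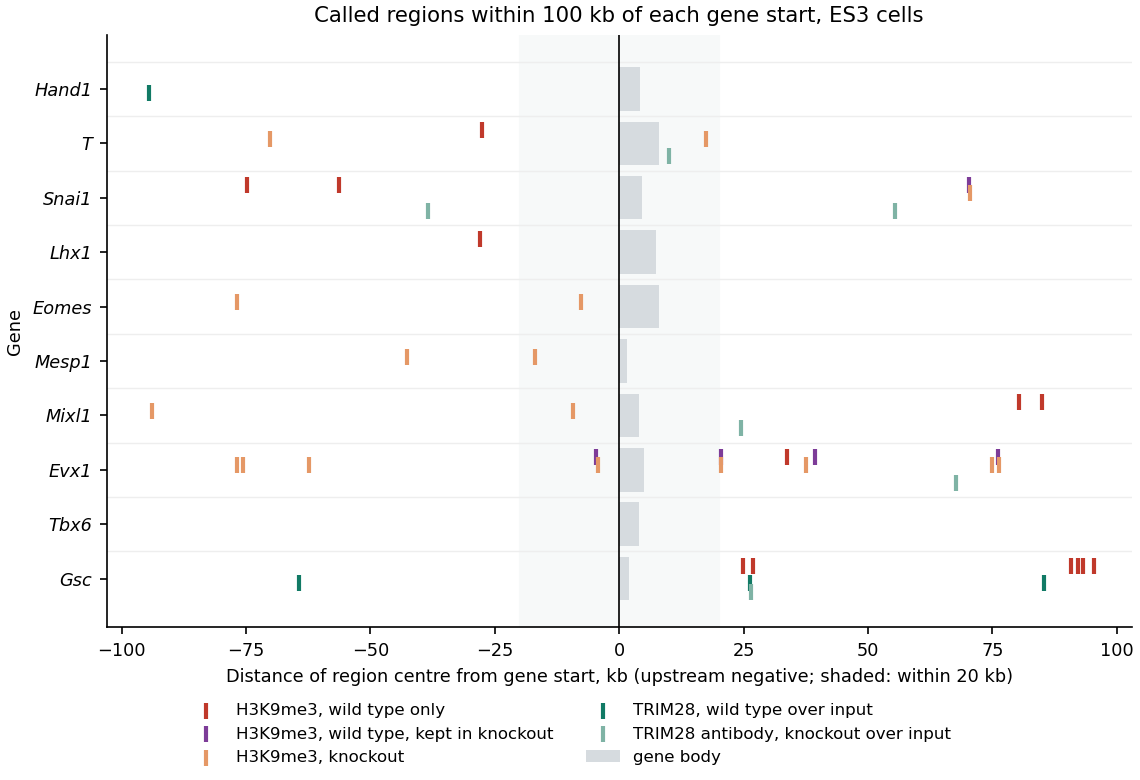
Called H3K9me3 regions and TRIM28 peaks (each genotype over input) within 100 kb of each gene start in ES3 cells, drawn at their centres in kb along the strand of the gene (upstream negative); grey blocks are gene bodies, genes are ordered by ES3 log2 ratio, and the pale band marks 20 kb on either side. Hand1 and Tbx6 have no H3K9me3 mark, Gsc has a TRIM28 peak 25.8 kb from its start beside wild-type-only regions, and Evx1 carries most of the regions kept in the knockout.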

How the data were processed

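RNA values are RPKM per transcript as deposited by the authors, 1 library per condition; the submitters' processing notes name Bowtie and mm9, while counting and normalization are not described in these sources. H3K9me3 regions and TRIM28 peaks are lists deposited by the authors, and each TRIM28 peak carries the authors' deposited score; the peak caller is not named in these sources. The ratio column deposited by the authors (knockout RPKM over wild-type RPKM) was not used for the values printed, which were computed from the 2 RPKM columns.

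The transcript with the highest mean RPKM stood for each symbol. Log2 ratios used a pseudocount of 1 RPKM; genes reaching 1 RPKM in a library of the pair count as measured, and were called at 2-fold. With 1 library per group no test was run. Span centring subtracted the median ratio within 20 bins of gene span. Regions overlapped at 1 bp or more and were near within 20 kb of a gene start. Depth cannot be given from RPKM, so its precision is unknown. The ratio and call steps were run on simulated data. Of 200 genes changed 4-fold, 100% were recovered in the ES3 pair (17818 genes) and in the MEF pair (17813 genes). The changed genes all lay well above 1 RPKM in wild type and were changed without noise. This recovery was therefore fixed in advance, checks only the arithmetic, and does not cover genes under 1 RPKM. Promoters came from the RefSeq table on GRCm38.p6, another build than mm9, and served only for sequence.

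The 10 genes and the 9 gene lists were chosen with earlier results of these data known. Some genes stand in several lists and are counted in each, as Fgf4 is among the streak signals and the pluripotency markers. Named genes were the 10, from each list up to 4 measured genes furthest from a ratio of 0, the nearest gene on each side of each of the 10, Trim28, and the 3 genes closest in level to each of the 3 with the largest ES3 ratio, of which 2 are not reported here; others are named as list counts, cell type checks or markers at 0, or after their values were seen. Other pseudocounts, filters, centrings, thresholds and windows were tried. The knockdown pair, the H3K27ac samples and exon positions were not used here. Python 3.11.15, numpy 2.4.6, pandas 2.3.3 and matplotlib 3.10.9 were used.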

Additional observations from a re-analysis of the deposited data

How the results depend on the processing

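The 3 genes higher in the ES3 knockout stayed past the threshold under every pseudocount, filter, centring, transcript and threshold tried, and no gene was called in MEFs under any. Their log2 ratios ranged from 1.05 to 3.71 for T, 1.23 to 3.94 for Hand1 and 1.36 to 2.39 for Snai1 between pseudocounts of 5 and 0.1 RPKM. With no filter on low values the ES3 median was 0.25 over all 10 genes, against 2.38 over the 3 measured. Span centring turned the MEF median from 0.29 to −0.03 and MEF Snai1 from 0.18 to −0.16. Counts of genes with a region near the start depended on the window. Within 50 kb and 100 kb they were 4 and 6 for wild-type H3K9me3 (47.3% and 69.3% of all genes). For wild-type-only H3K9me3 they were 4 and 6 (36.1% and 57.0%). For wild-type TRIM28 peaks over input they were 1 and 2 (16.6% and 29.3%). For TRIM28-antibody peaks in the knockout they were 4 and 5 (11.7% and 21.5%). The count of peaks over knockout was 1 within 100 kb (22.1%), and that of knockout H3K9me3 was 3 within 10 kb (14.1%). No paired analysis was possible because each group is 1 library, and for the same reason no replicate could be left out. With the depth unknown, how far levels under 1 RPKM differ from 0 cannot be said.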
